A study of Rattus norvegicus with 6 samples.

Results

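The Dlk1-Dio3 region on rat chromosome 6 holds a small group of imprinted miRNAs made from the hairpins Mir341, Mir1188 and Mir370, and their 5 mature products are described here in exosomes of bone marrow mesenchymal stem cells (MSCs). All 5, rno-miR-341, rno-miR-1188-5p, rno-miR-1188-3p, rno-miR-370-3p and rno-miR-370-5p, were found by name among the 749 miRNAs of the count table, each as 1 row. The group was picked from its measured values, namely the levels of miR-1188-5p and miR-370-5p that stood out in single libraries. Differences of the members between the groups are therefore given as a description, and where members are counted past a threshold nothing is read from the count.

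MSCs were cultured from the bone marrow of male Sprague-Dawley rats, whose age neither the labels nor the study's methods give, and exosomes were collected by ultracentrifugation of medium with exosome-free serum. MSCs-exo came from MSCs without pretreatment and MSCsTXL-exo from MSCs given 400 μg/mL Tongxinluo (TXL), a Chinese medicine compound, for 24 h. Each group had 3 libraries, and the comparison asks which exosomal miRNAs differ after TXL. The libraries are called 10, 12 and 13 after the numbers their columns carry in both groups, which nothing ties to the replicate numbers of the samples. What the numbers mark, and whether equal numbers pair libraries between the groups, is not stated. Comparisons within a number or blocked on it take such a pairing as given. Whether the cultures or animals behind the libraries of a group were separate or pooled is not stated.

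Imprinted genes are expressed from the allele of 1 parent. In the Dlk1-Dio3 region the maternal allele yields noncoding RNAs, among them Meg3 and large arrays of small nucleolar RNAs and miRNAs, while the paternal allele expresses Dlk1, which restrains adipocyte differentiation, and Rtl1, a placental gene derived from a retrotransposon. A hairpin precursor is cut into a duplex of a 5p and a 3p arm, of which usually one is retained in the silencing complex, and bases 2 to 8 of that arm, the seed, lead target recognition. miR-370 is conserved in mammals, and its 3p arm is known in human liver cells to repress Cpt1a, the rate-limiting enzyme of mitochondrial fatty acid oxidation.

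The 5 mature sequences, as RefSeq gives them on the plus strand of GRCr8, are shown because no member shares a seed with another member. The seed is in capitals.
rno-miR-341: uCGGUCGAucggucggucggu
rno-miR-1188-5p: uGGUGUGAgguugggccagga
rno-miR-1188-3p: cGAGGCUCcccaccaca
rno-miR-370-5p: cAGGUCACgucucugcaguuacac
rno-miR-370-3p: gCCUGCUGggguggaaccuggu

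Among the RefSeq rat miRNAs only miR-370-5p had a partner with the same seed, rno-miR-1193-3p of the same region, whose sequence is uAGGUCACccguuuuacuaucc. miR-341 is built of repeats: the letters CGGU, searched on the given strand with overlaps allowed, occur 4 times in its 21 bases, as in no other of the 693 mature sequences, of which 5.48% hold them at least once. The longest exact run of bases that a member shared with another of the 419 rat hairpins, on either strand, was 9 or 10 bases. None thus has an identical copy there, and copies with mismatches were not searched for.

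The 3 hairpins lie in order over 6755 bases of GRCr8 and are shown with the mature arms in capitals, so that the position and length of each counted product can be seen. Mir341 at chr6:134347815-134347910 has only a 3p product annotated, Mir1188 at chr6:134348153-134348234 begins 242 bases further on, and Mir370 at chr6:134354491-134354569 follows after another 6256 bases.
Mir341: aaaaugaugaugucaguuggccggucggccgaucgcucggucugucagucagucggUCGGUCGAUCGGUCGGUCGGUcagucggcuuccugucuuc
Mir1188: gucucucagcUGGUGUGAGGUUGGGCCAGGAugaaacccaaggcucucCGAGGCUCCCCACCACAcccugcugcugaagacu
Mir370: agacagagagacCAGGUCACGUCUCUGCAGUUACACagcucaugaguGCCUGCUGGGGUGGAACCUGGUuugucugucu

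In the same annotation Mir370 lies within the long noncoding RNA LOC102555254. Mir341 and Mir1188 lie outside it and outside Meg3 and Rtl1, and other genes were not searched as hosts. The nearest miRNA hairpins outside the group are Mir136, which overlaps Rtl1 and ends 16398 bases before Mir341, and Mir379, which begins 188875 bases after Mir370. The count table gives other coordinates, from 133733296 (start of miR-341) to 133739984 (end of miR-370-3p) on chromosome 6, in a build that the sources used here do not give. All 5 members are shifted by the same 614575 bases between the table and GRCr8. Mir379 is shifted by more, as it starts at 134543445 in GRCr8 while miR-379-5p starts at 133857715 in the table. The distance from Mir370 to Mir379 given above thus holds for GRCr8 only.

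The libraries held 382665 to 1792805 UMIs (unique molecular identifiers, each counting 1 captured RNA molecule), and 657 to 720 miRNAs were detected in each. Levels are CPM, the UMI counts scaled to a common library total over the 392 miRNAs kept by the low-count filter of edgeR, with TMM factors (trimmed mean of M values) applied to the totals. The 7 mesenchymal miRNAs of the marker list, among them miR-199a-3p and miR-143-3p, were counted in every library and summed to 311112 to 397575 CPM in MSCs-exo and 346401 to 396775 CPM in MSCsTXL-exo. The largest of them in every library was miR-125b-5p, with 71212 UMIs in MSCs-exo library 10 and 343322 in MSCsTXL-exo library 13. The 3 neuronal miRNAs, relevant because this imprinted region is also active in brain, summed to 1423 to 1838 CPM and 1485 to 1807 CPM, with the lowest sum in MSCs-exo library 10. Most of each sum was miR-128-3p, with 699 to 2554 UMIs in a library, against 1 to 23 for miR-124-3p. The erythroid list, with 2 of its 3 markers in the table, stayed at 9.99 to 28.2 CPM, and the 3 myeloid markers summed to 265 to 361 CPM in MSCs-exo and less, 132 to 247 CPM, in MSCsTXL-exo. The muscle list, with 1 of its 3 markers counted in every library, was also lower in MSCsTXL-exo within each number, at 402 to 828 CPM without TXL and 127 to 501 CPM with TXL. The liver marker was at 107 to 252 CPM, the endothelial marker at 709 to 1217 CPM and the epithelial list at 13.5 to 37.5 CPM over all libraries. The part of these other cell types in the results was not tested.

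Levels within the group spanned over 3 orders of magnitude. miR-1188-5p was the most abundant member in every library, miR-370-3p came next, miR-341 was far lower, and both other arms, miR-1188-3p and miR-370-5p, were near the detection limit in most libraries. By UMI count miR-1188-5p ranked 9 of 749 miRNAs in MSCs-exo library 10 and 17 to 44 in the other libraries. miR-370-3p ranked 41 to 117 and miR-341 ranked 151 to 325.

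miR-1188-5p, a rodent miRNA, was, in MSCs-exo, at 37419 CPM in library 10, 6091 in library 12 and 2272 in library 13, and in MSCsTXL-exo at 7249, 2575 and 2624 CPM in the same order. MSCs-exo library 10 alone stood far above the rest, 5.16-fold over the next highest, MSCsTXL-exo library 10, and the groups overlapped. These levels rest on 19356 UMIs in MSCs-exo library 10 (exact Poisson 95% interval 19084 to 19631) and on at least 2075 UMIs in each other library, so counting error is small beside the differences between libraries. The Poisson intervals cover counting error only. In that 1 library miR-1188-5p made up 4.27% of all UMIs, against 0.21% to 0.758% in the other libraries.

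miR-370-3p, the main arm of its hairpin, was, in MSCs-exo, at 2217 CPM in library 10, 704 in library 12 and 761 in library 13, and in MSCsTXL-exo at 2424, 958 and 258 CPM in the same order. The 2 libraries numbered 10 were the highest and close to each other, MSCsTXL-exo library 13 was the lowest, and the groups overlapped fully. MSCsTXL-exo had 1.09-fold and 1.36-fold the level of MSCs-exo within numbers 10 and 12, but 0.338-fold within number 13.

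miR-341, also a rodent miRNA, was, in MSCs-exo, at 182 CPM in library 10, 85.9 in library 12 and 34.6 in library 13, and in MSCsTXL-exo at 60.0, 60.8 and 14.3 CPM in the same order. Within each number MSCsTXL-exo was the lower one, at 0.33-fold, 0.707-fold and 0.412-fold, and number 13 held the lowest level of each group. As the numbers differed among themselves, the groups nonetheless overlapped. The UMIs behind the levels were few, 22 to 94 in a library, and the 95% counting intervals of MSCsTXL-exo libraries 10 (38.4 to 89.2 CPM) and 12 (45.0 to 80.4 CPM) nearly coincided.

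miR-370-5p, the minor arm of its hairpin, was, in MSCs-exo, at 17.4 CPM in library 10, 15.5 in library 12 and 9.74 in library 13, and in MSCsTXL-exo at 12.5, 463 and 18.2 CPM in the same order. It was high in MSCsTXL-exo library 12 alone, at 25.5-fold the next library, where it had 373 UMIs against 5 to 28 elsewhere. The level in that library had a 95% counting interval of 417 to 512 CPM, whereas the intervals of the other 5 libraries all overlapped each other.

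miR-1188-3p, annotated with only 17 bases, was, in MSCs-exo, at 7 UMIs in library 10, 8 in library 12 and 6 in library 13, and in MSCsTXL-exo at 0, 10 and 6 UMIs in the same order. Its levels ran from 3.89 to 13.5 CPM in the 5 libraries where it was seen, and the 0 of MSCsTXL-exo library 10 allows up to 7.50 CPM by the limit of 3 UMIs, or 9.22 CPM by the exact Poisson 95% interval. All 6 exact Poisson intervals overlapped, which is no test of a difference between libraries, and none was run. With 37 UMIs in all miR-1188-3p did not pass the filter on low counts.

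**Figure D1:**
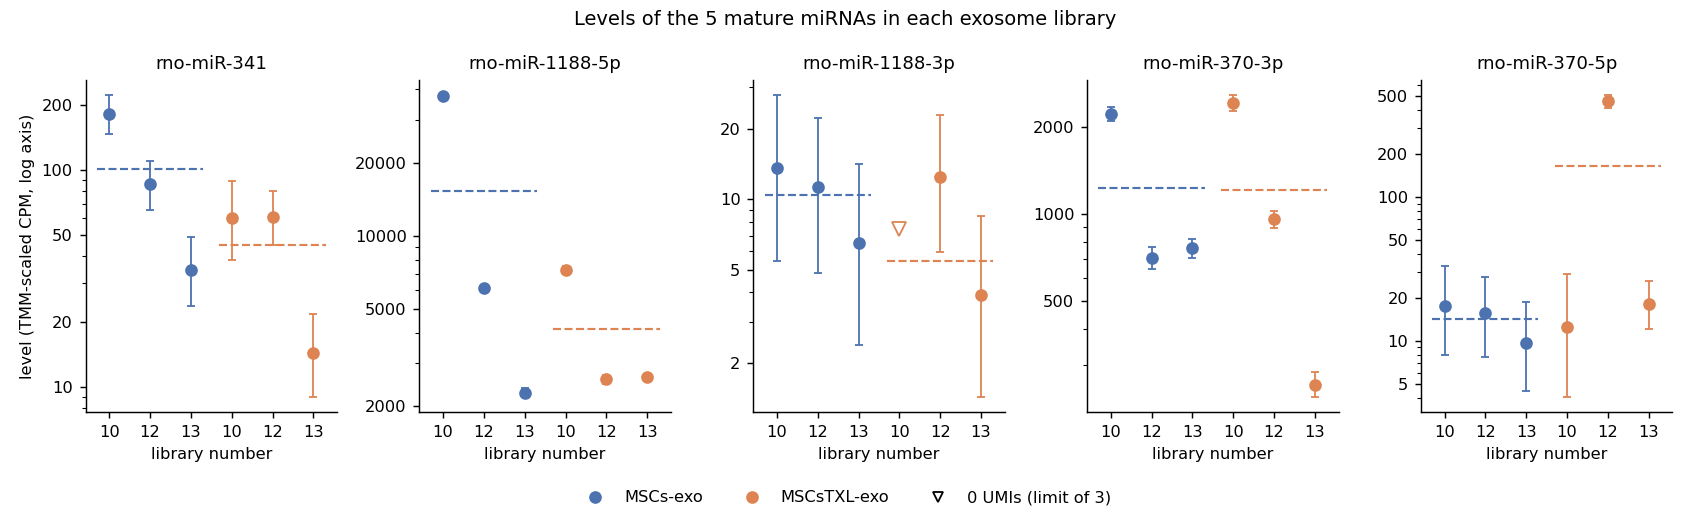
Level of each of the 5 miRNAs in TMM-scaled CPM (log axis) by library number, blue for MSCs-exo and orange for MSCsTXL-exo; bars are exact Poisson 95% intervals of the count, dashed lines are group means (n = 3) and the open triangle is the limit that 0 UMIs allow. miR-1188-5p stands apart in MSCs-exo library 10 (37419 CPM) and miR-370-5p in MSCsTXL-exo library 12 (463 CPM), while miR-370-3p is highest in both libraries numbered 10.

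The balance of the hairpin's arms also set MSCsTXL-exo library 12 apart, and library 13 of the same group to a lesser degree. Both arms are counted in the same library, so no scaling enters. In MSCs-exo the 5p arm of miR-370 made up 0.779% of the hairpin's UMIs in library 10, 2.15% in library 12 and 1.26% in library 13, and in MSCsTXL-exo it made up 0.513%, 32.6% and 6.59% in the same order. The Wilson 95% interval was 29.9% to 35.3% in MSCsTXL-exo library 12 and 4.60% to 9.36% in MSCsTXL-exo library 13, and neither overlapped those of the other 4 libraries, the highest of which ended at 3.81%. miR-370-3p itself, at 958 CPM, was the third highest of the 6 libraries in MSCsTXL-exo library 12, so the higher share there came with more 5p and not with less 3p. In MSCsTXL-exo library 13, by contrast, miR-370-3p was at its lowest, 258 CPM. miR-370-5p was at 18.2 CPM there, with a counting interval that overlapped those of the other 4 libraries.

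Among 92 miRNAs with both arms in the table and at least 100 UMIs over both in every library, the log2 ratio of 5p to 3p in MSCsTXL-exo library 12 lay furthest from the median of the other 5 libraries for miR-370, at 5.16. The next was miR-10a, of a HOX-embedded family, at -3.80, and the median size of this shift was 0.71. In MSCsTXL-exo library 13 miR-370 shifted by 2.41 and ranked 6 of the 92, and in MSCsTXL-exo library 10 by -2.02 and ranked 7. The ratios had 0.5 UMIs added to each arm. miR-1188, at 3.51 in favour of 5p, ranked 1 in MSCsTXL-exo library 10, which rests on the 0 UMIs of its 3p arm there. Since miR-370 was picked for the level of its 5p arm, these ranks describe it and test nothing.

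The miR-1188 hairpin was at the other extreme. In MSCs-exo its 3p arm made up 0.0362% of the UMIs in library 10, 0.185% in library 12 and 0.285% in library 13. In MSCsTXL-exo the shares were 0%, 0.48% and 0.148% in the same order, and the 0 of 2901 allows up to 0.132% (Wilson 95% upper bound). Over all libraries its 5p arm outnumbered the 3p arm 941-fold, which ranked 13 of the 92, against 10.3-fold in favour of 3p for miR-370, which ranked 74. In the 3p arm MSCs-exo library 10 did not stand alone, as its 7 UMIs gave 13.5 CPM, next to 12.4 CPM in MSCsTXL-exo library 12. The 5.16-fold excess of miR-1188-5p is over MSCsTXL-exo library 10, where the 3p arm had 0 UMIs. Such counts are too few to tell whether the 3p arm had a like excess over that library. The 3p share of MSCs-exo library 10 had a Wilson 95% interval of 0.0175% to 0.0746%. This lay under those of MSCs-exo libraries 12 and 13 and MSCsTXL-exo library 12, and overlapped those of MSCsTXL-exo libraries 10 and 13.

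**Figure D2:**
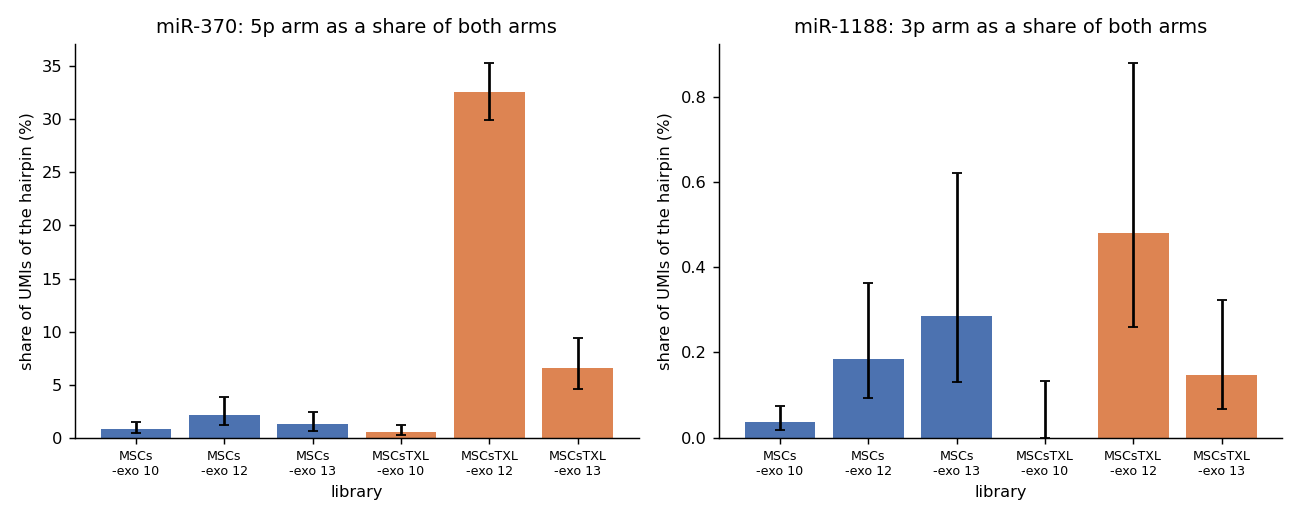
Share of the miR-370 hairpin's UMIs from its 5p arm and of the miR-1188 hairpin's UMIs from its 3p arm, in percent, by library (blue MSCs-exo, orange MSCsTXL-exo); bars start at 0 and error bars are Wilson 95% intervals for counting error. The miR-370 share is 32.6% in MSCsTXL-exo library 12 and at most 6.59% elsewhere, and the miR-1188 share is under 0.5% throughout.

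Between the groups, the mean of miR-1188-5p was 15261 ± 19285 CPM (SD, n = 3) without TXL and 4149 ± 2684 CPM (SD, n = 3) with TXL. The difference from edgeR was -1.88 on the log2 scale (standard error 0.96), and without MSCs-exo library 10 it was -0.040. edgeR gives no standard error here, so each was derived as the size of the log2 difference divided by the square root of the quasi-likelihood F. The means of miR-341 were 101 ± 74.7 CPM (SD, n = 3) and 45.0 ± 26.6 CPM (SD, n = 3), a log2 difference of -1.18 (standard error 0.76). It was negative whichever single library was left out, from -1.64 without MSCs-exo library 13 to -0.46 without MSCs-exo library 10.

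The means of miR-370-3p were nearly equal, 1228 ± 858 CPM (SD, n = 3) without and 1213 ± 1105 CPM (SD, n = 3) with TXL, a log2 difference of -0.02 (standard error 0.78) that ran from -1.0 to 0.70 when single libraries were left out. The sister arm miR-370-5p had 14.2 ± 3.99 CPM (SD, n = 3) and 165 ± 258 CPM (SD, n = 3), a log2 difference of 3.54 (standard error 1.36) that became 0.16 without MSCsTXL-exo library 12. For each of the 5 members the larger SD of the groups exceeded the distance between the group means.

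Past the thresholds that the study used, more than 2-fold together with p under 0.05 before adjustment, 1 of the 4 members tested was called, miR-370-5p, higher in MSCsTXL-exo. Over all 392 miRNAs 3.57% were called, 1.79% higher and 1.79% lower, and the call of miR-370-5p only restates that the group was picked on these levels. Of the 4 members tested 0 had groups that did not overlap, against 7.4% of the 392, and the groups of the untested miR-1188-3p overlapped too. Blocked on the library number (a replicate block), miR-341 (log2 difference -1.11, standard error 0.35) and miR-1188-5p (-1.14, standard error 0.46) passed the same thresholds on the lower side and miR-370-5p (2.13, standard error 1.05) no longer passed. These counts too rest on values that the choice of members used, and no member had an adjusted p under 0.05 in either comparison. In that comparison 5.87% of the 392 were called lower and 1.53% higher, or 29 miRNAs in place of 14. By edgeR's quasi-likelihood test with Benjamini-Hochberg adjustment 0 of the 392 passed an adjusted p under 0.05 without the block, where 14 had an unadjusted p under 0.05, and DESeq2 and limma-voom also gave 0. With the block 1 passed, miR-146a-5p, which is no member.

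The levels of miR-341 and miR-370-3p were also set side by side by library number, as a description. They are not free of the choice of the group, since both followed miR-1188-5p over the libraries (Pearson's r 0.83 and 0.68). Taken over both groups, the mean level of miR-370-3p was 2321, 831 and 509 CPM for numbers 10, 12 and 13, and that of miR-341 was 121, 73.4 and 24.5 CPM. In the comparison with the block, an edgeR quasi-likelihood F test of the number was run over all 392 miRNAs. Of these, 8, or 2.04%, had an adjusted p under 0.05, none of them a member, and 119 had an unadjusted p under 0.05. The test was chosen after the levels were seen, and library 13 was the deepest and library 10 the shallowest of each group, so number and depth cannot be told apart.

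The members differed among themselves in their pattern over the libraries. Between log2 levels over the 6 libraries, Pearson's r was 0.83 for miR-341 with miR-1188-5p, 0.78 for miR-341 with miR-370-3p and 0.68 for miR-1188-5p with miR-370-3p. The 2 arms of miR-370 had -0.02, and miR-370-5p and miR-341 had 0.06. The arms of miR-1188 had 0.22, which rests on the 37 UMIs of the 3p arm. These values describe 6 points that share library and depth.

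Of the 3 miRNAs whose levels followed each member most closely, none lay in the miR-770 to miR-410 stretch, and 2 of all 15 lay elsewhere on chromosome 6. Those 2 were miR-1247-3p and miR-3068-5p, and whether they lie in the wider Dlk1-Dio3 region was not checked. Among the 20 most alike, miRNAs of the stretch numbered 6 for miR-341, 5 for miR-1188-5p, 4 for miR-370-3p, 3 for miR-1188-3p and 2 for miR-370-5p. The stretch made up 10.7% of the miRNAs tested. Fellow members belong to the stretch in these counts and in that share, and nothing is read from the counts. The 3 most alike of miR-1188-5p were miR-6316 (r = 0.99), miR-1247-3p (0.97) and miR-20b-3p (0.97), all highest in MSCs-exo library 10. miR-6316, for example, had 88.9 CPM there and 9.74 to 21.1 CPM elsewhere. For miR-341 they were miR-216a-3p (0.99), miR-149-3p (0.99) and miR-5132-5p (0.97), again highest in MSCs-exo library 10 and lowest in MSCsTXL-exo library 13, with miR-216a-3p falling from 3743 to 38.9 CPM between those libraries.

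For miR-370-3p they were miR-23a-5p (0.97), miR-34b-3p (0.97) and miR-664-2-5p (0.97), of which miR-34b is a p53-induced miRNA. For miR-370-5p they were miR-138-2-3p (0.99), miR-3585-3p (0.98) and miR-3068-5p (0.97), all peaking in MSCsTXL-exo library 12. There miR-138-2-3p had 241 CPM against 24.0 to 32.9 CPM elsewhere and miR-3585-3p 862 CPM against 7.50 to 37.6 CPM. For the sparse miR-1188-3p the rule gave miR-1843b-3p (0.97), miR-542-3p (0.92) and miR-143-3p (0.88).

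**Figure D3:**
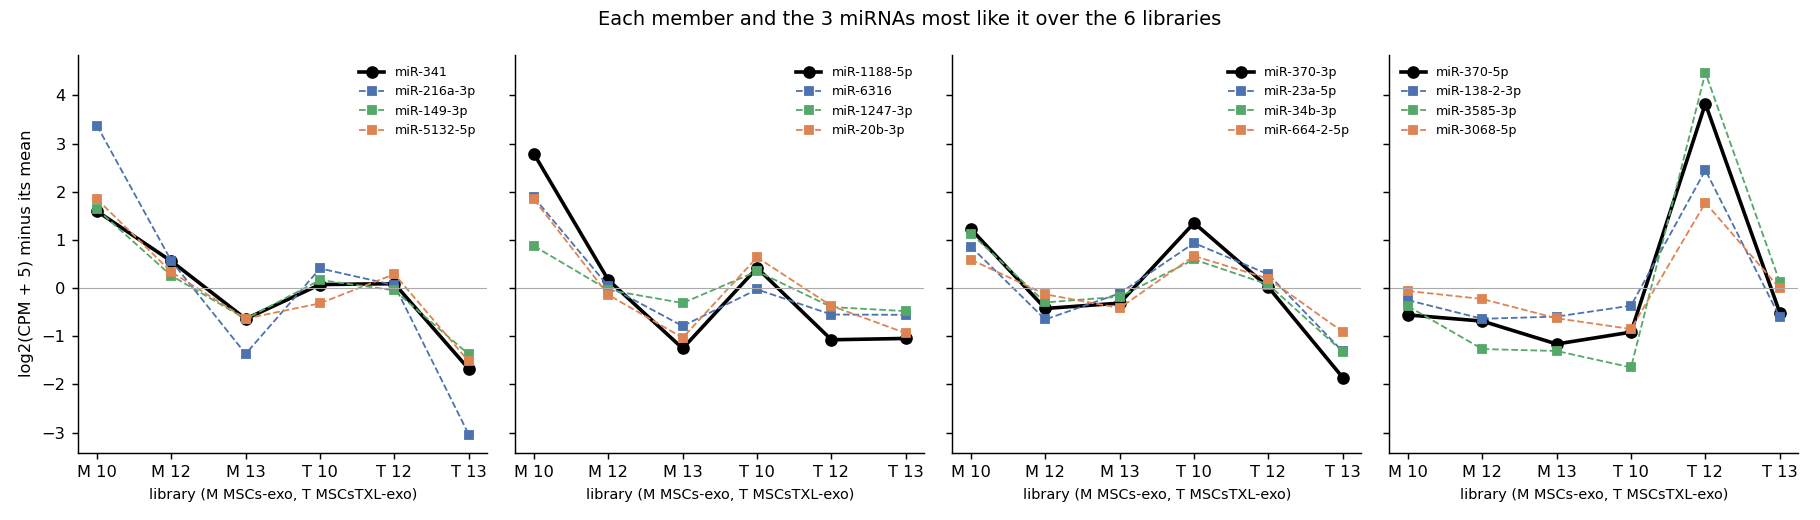
log2(CPM + 5) minus its mean over the 6 libraries for 4 members (black) and the 3 miRNAs most like each (coloured), by library (M for MSCs-exo, T for MSCsTXL-exo). The lines of miR-341 and miR-1188-5p start highest in MSCs-exo library 10, those of miR-370-3p rise in both libraries numbered 10, and those of miR-370-5p peak in MSCsTXL-exo library 12.

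The 2 libraries in which members stood out held many such miRNAs. With an offset of 5 CPM, 23 of the 392 tested miRNAs were over 2-fold above every other library in MSCs-exo library 10, 16 in MSCsTXL-exo library 12, 1 in MSCsTXL-exo library 10 and 0 in each of the others. By the size of this gap miR-1188-5p (5.16-fold) ranked 2 of the 110 miRNAs highest in MSCs-exo library 10 and miR-341 (2.05-fold) ranked 22. miR-370-5p (20.2-fold) ranked 2 of the 58 highest in MSCsTXL-exo library 12.

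Base composition moved with the libraries too. The members are rich in G and C, from 54.2% in miR-370-5p to 70.6% in miR-1188-3p, against a median of 50% (quartiles 42.9% and 58.3%) over the 365 tested miRNAs with a RefSeq sequence. Across these 365 miRNAs, which share their library, Spearman's rho of the G and C share with the log2 level over the median of the other libraries was in MSCs-exo 0.32 for library 10, -0.03 for library 12 and -0.34 for library 13, and in MSCsTXL-exo 0.27, 0.20 and -0.37 in the same order. The 23 miRNAs that peaked over 2-fold in MSCs-exo library 10 had a median of 54.5%. Its part in the members' levels was not tested.

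The members supplied a large and changing part of the miRNA counted in the miR-770 to miR-410 stretch. From the miR-770 row to the miR-410 row the table holds 101 miRNAs, and in MSCs-exo the 5 members made up 70.0% of their UMIs in library 10, 38.4% in library 12 and 32.1% in library 13. In MSCsTXL-exo they made up 51.8%, 31.5% and 38.6% in the same order. miR-1188-5p alone gave 19.9% to 65.7%. The 101 summed to 56925 CPM in MSCs-exo library 10 and 18818 CPM in MSCsTXL-exo library 10, and to 7569 to 17992 CPM in the other libraries. Without miR-1188-5p the sums of the libraries numbered 10 were 19506 CPM and 11569 CPM, and the others 4945 to 11901 CPM, so that MSCs-exo library 10 was still the highest but by a smaller margin.

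**Figure D4:**
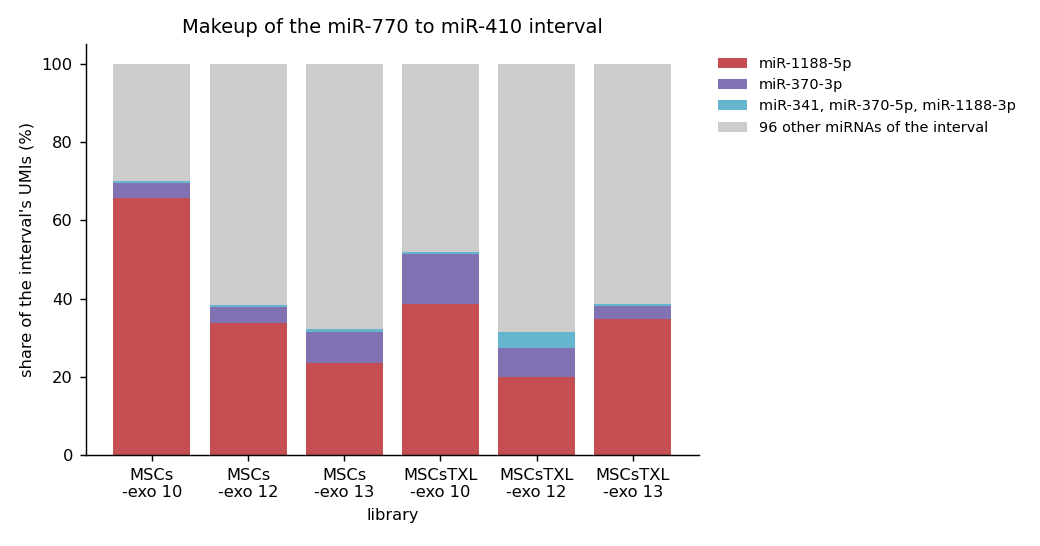
Share of the UMIs of the 101 miRNAs between miR-770 and miR-410 that came from miR-1188-5p, from miR-370-3p, from the other 3 members together and from the 96 other miRNAs, in percent, by library. miR-1188-5p is the largest of the members in each bar, from 19.9% in MSCsTXL-exo library 12 to 65.7% in MSCs-exo library 10.

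Of the 96 other miRNAs of the stretch 38 passed the filter, and 27 of these had a negative and 11 a positive log2 difference (median -0.39, against 0.03 over all 392). Lower in MSCsTXL-exo past both thresholds were 2, miR-433-5p (-1.33, standard error 0.56) and miR-412-3p (-1.23, standard error 0.49), and 0 were higher. Against the background of 1.79% in either direction this is 2 of 38 lower, and neither passed an adjusted p under 0.05 (adjusted p = 0.972 for both, edgeR's quasi-likelihood test). miR-433-5p was, in MSCs-exo, at 4197 CPM in library 10, 2699 in library 12 and 805 in library 13, and in MSCsTXL-exo at 1054, 1281 and 722 CPM in the same order. Without MSCs-exo library 10, MSCs-exo library 12 or MSCsTXL-exo library 13 the count of lower ones was 0, without MSCs-exo library 13 it was 5, and with the replicate block it was 5, beside 1 higher, miR-379-3p.

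MSCs-exo library 10 was the highest library for 21 of the 38, or 55.3%, as for miR-341 and miR-1188-5p, while over all 392 miRNAs it was the highest for 28.1%. Next to the members on the Rtl1 side, miR-3543, on the opposite strand, had 1175 CPM in MSCs-exo library 10 and 40.9 to 364 CPM elsewhere (log2 difference -1.10, standard error 0.96), and both arms of miR-136 had at most 7 UMIs in any library. On the other side miR-379-5p, at the start of the large miRNA array, was even over the libraries, at 504 to 734 CPM in MSCs-exo and 584 to 718 CPM in MSCsTXL-exo. It lacked the excess in MSCs-exo library 10, as did miR-379-3p, which was highest in both libraries numbered 13 (424 and 426 CPM), and miR-411-5p (30.9 CPM there, 17.5 to 46.5 CPM elsewhere). miR-1193-3p, which shares the seed of miR-370-5p, had 4 to 9 UMIs in each library and did not pass the filter.

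**Figure D5:**
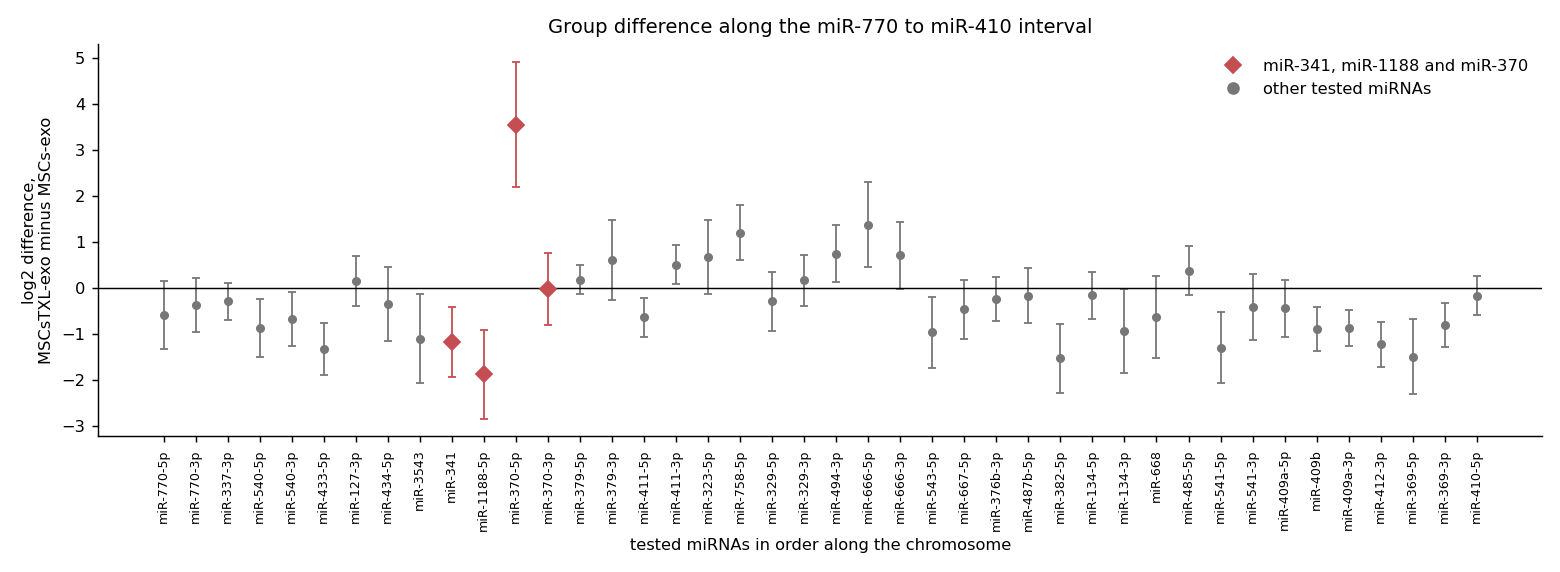
log2 difference between MSCsTXL-exo and MSCs-exo from edgeR for the 42 tested miRNAs of the stretch in order along the chromosome. Bars are standard errors derived from the quasi-likelihood F, red diamonds are the 4 tested members and grey points the other 38. miR-370-5p (3.54) and miR-1188-5p (-1.88) lie at the upper and lower ends, next to miR-370-3p at -0.02.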

How the data were processed

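Exosomal RNA of 3 MSCs-exo and 3 MSCsTXL-exo samples was sequenced with the QIAseq miRNA Library Kit. The authors deposited UMI counts per mature miRNA, with no normalization; the submitters' processing notes name cutadapt 2.7 and Bowtie 1.2.2, and the genome build is not given in the sources used here. The table has 833 lines for 749 miRNAs, as 69 miRNAs have a line with the same counts for each locus, and each miRNA was used once. Its 6 columns of the authors' CPM were not used. Columns named M and T were read as the 2 groups.

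Groups were compared in R 4.3.3 with edgeR 4.0.16 (TMM factors 0.861 to 1.14, filterByExpr by group with minimum count 10 and minimum total 15, quasi-likelihood test). The test was also run on simulated counts as a check of the code. These had the same relative spread for all miRNAs and no single library that stood out, so the check does not cover such libraries. The named miRNAs were the members, those of the stretch that were called or lay within 3 rows of the members, the 3 most alike of each member by Pearson's r of log2(CPM + 5), and those sharing a seed. Members and lists were chosen with earlier results of these data known. Same-numbered libraries of the 2 groups correlated at 0.434 (10), 0.179 (12) and 0.70 (13) in their deviations from the group means over 392 miRNAs, so the number was also used as a replicate block. MSCsTXL-exo library 12, however, correlated best with MSCs-exo library 10 (0.347); the numbers come from the column names. Alternatives were DESeq2 1.42.0, limma-voom (limma 3.58.1), other scalings and filters, and leaving out libraries. P-values measure the spread between these samples only. RefSeq sequences matched 682 of the 749 miRNAs and all 5 members.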

Additional observations from a re-analysis of the deposited data

How the results depend on the processing

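The group differences of miR-341 and miR-370-3p moved by less than the spread between libraries under every alternative tried, with ranges over single left-out libraries of -1.64 to -0.46 for miR-341 and -1.0 to 0.70 for miR-370-3p, whose sign is therefore not settled. That of miR-1188-5p ran from -2.55 to -0.040 over left-out libraries, with -0.040 without MSCs-exo library 10, and that of miR-370-5p from 0.16, without MSCsTXL-exo library 12, to 4.10. Without both MSCs-exo library 10 and MSCsTXL-exo library 12, an alternative chosen after the data were seen, they were 0.23 and 0.37. limma-voom gave miR-370-5p 1.80. With at least 10 counts in every library miR-370-5p was not tested.

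The count of 14 miRNAs past both thresholds was 34 with no filter, 6 with at least 10 counts in every library, 24 with DESeq2, 9 with limma-voom, 29 with the replicate block, 6 to 38 over single left-out libraries (6 without MSCs-exo library 10 or 12, 38 without MSCs-exo library 13, 25 without MSCsTXL-exo library 13) and 7 without both named libraries. The count at an adjusted p under 0.05 was 1 with the replicate block and 0 with every other alternative listed here. Among the other miRNAs of the stretch, the count of lower ones, 2, was 0 with library totals only, 1 with limma-voom or at least 10 counts in every library, 5 with the replicate block, 0 to 5 over left-out libraries and 0 without both named libraries, and the count of higher ones, 0, was 1 with the replicate block and 0 to 1 over left-out libraries. The replicate block changed no call of a member or of the stretch besides those given above. The causes were not tested. Levels of the members moved by less than 1 SD of their group with RLE size factors or library totals. The depth limits miR-1188-3p, and miR-370-5p outside MSCsTXL-exo library 12, to counts of at most 28 UMIs.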
